A study of Rattus norvegicus with 2 samples.

Results

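The genes described here are those of the rat major histocompatibility complex (MHC), which is called RT1 in the rat, and of the machinery that supplies MHC proteins with peptides. Members were taken by symbol: every row of the deposited gene table that begins with RT1-, the light chain gene B2m, the peptide loading genes Tapbp, Tap1 and Tap2, the immunoproteasome genes Psmb8, Psmb9 and Psmb10, the invariant chain gene Cd74, and the transactivator genes Nlrc5 and Ciita. This gave 53 of the 32662 genes in the table. Of these, 32 were class I heavy chain rows and 11 were class II chain rows. The 53 rows carry 51 symbols, since RT1-CE16 and RT1-DMa each have 2 gene identifiers.

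RNA depleted of ribosomal RNA was sequenced from 2 retinas of 2-month-old Long-Evans rats, which the methods of the study describe as female. The CTRL library comes from a retina after a sham procedure. The IR12 library comes from a retina with ischemia and reperfusion (IR), in which the blood supply is interrupted and then restored, collected 12 hours after reperfusion. With 1 library per condition there is no replicate error, so every difference given here describes these 2 libraries and none was tested.

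MHC class I molecules sit on most nucleated cells and consist of a polymorphic heavy chain and the invariant light chain beta-2-microglobulin. They display peptides that the proteasome cuts from proteins of the cell itself and that the TAP transporter carries into the endoplasmic reticulum, and they are read by CD8 T cells. MHC class II molecules are alpha-beta pairs found mainly on dendritic cells, macrophages and B cells. They bind peptides of engulfed proteins in an endosomal compartment, guided by the invariant chain, and are read by CD4 T cells. The neural retina is known as an immune-privileged tissue with little MHC on its neurons, and interferons are the classical inducers of both pathways.

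The table gives FPKM, a count of fragments scaled to transcript length and to the mapped fragments of the library. Ratios are log2 of (FPKM + 1) in IR12 over CTRL, which understates the difference of genes with low values, and a gene at or past 1 or -1 is called at least 2-fold higher or lower. A gene with an FPKM of at least 1 in at least 1 library is called expressed.

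Most expressed MHC and antigen presentation genes had a higher level in IR12 than in CTRL. Of the 53 members, 14 were at least 2-fold higher in IR12, all among the 25 expressed, beside 6.56% of the 13599 expressed genes. None of the 53 was at least 2-fold lower, where 6.12% of the expressed genes were. The 28 members under 1 FPKM in both libraries cannot reach 2-fold on this scale. Only the 16 at 1 FPKM or more in CTRL could be called lower. Of the 25 expressed members, 24 lay above their CTRL value. The exception was Ciita, which lay slightly below it on the deposited scale and above it once both libraries were brought to the same FPKM sum. A gene can count as expressed through IR12 alone, as 9 of the 25 did, which favours higher values. Among the 16 members at 1 FPKM or more in CTRL, 8 were at least 2-fold higher, against 535 of the 12958 genes at that level in CTRL, and their median log2 ratio was 0.92 beside -0.01, a choice made after the values were seen.

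The scale of the libraries bears on these counts. Small nuclear, small nucleolar and similar short RNAs held 67.9% of the FPKM sum in CTRL and 46.3% in IR12. Bringing both libraries to the same sum moved the median log2 ratio of the expressed genes from 0.02 to 0.59. Under that scale 2817 expressed genes were at least 2-fold higher and 436 at least 2-fold lower, in place of 892 and 832, and 18 members were at least 2-fold higher. The median log2 ratio of the 25 expressed members was 1.21 as deposited and 1.66 under the common sum. For the 16 members at 1 FPKM or more in CTRL it was 1.48 under the common sum, beside 0.57 for all genes at that level in CTRL.

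**Figure D1:**
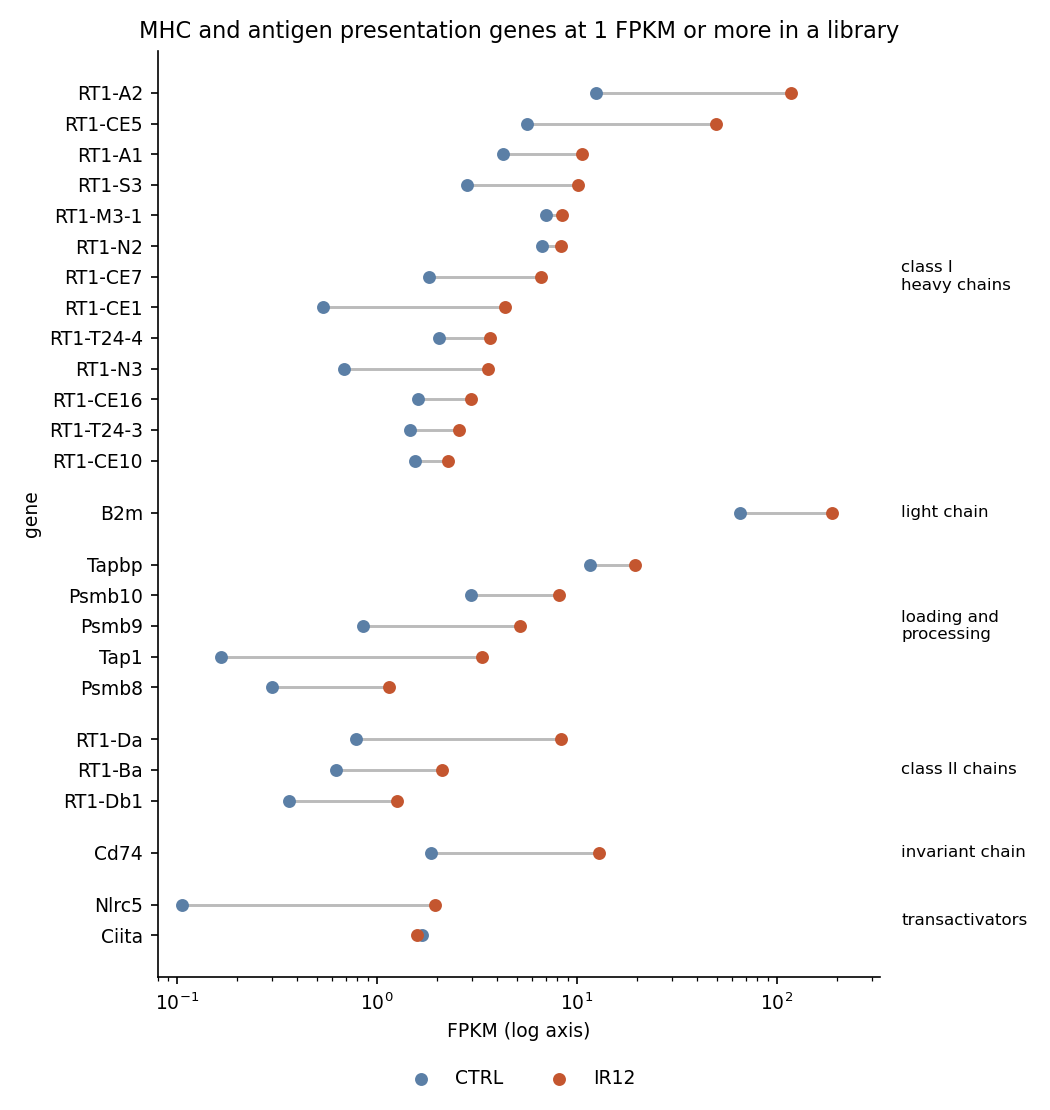
FPKM (log axis) of the 25 MHC and antigen presentation genes with at least 1 FPKM in a library, by role, with 1 point for CTRL and 1 for IR12. The IR12 point lies to the right for all genes shown but Ciita, with the widest gaps at Tap1, Nlrc5, RT1-Da, RT1-A2 and RT1-CE5.

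Precision differs widely between members. Among genes that share a locus length, the lowest repeated FPKM shows what 1 read was worth: at 939 bases, a length that 186 genes share, it was 0.0881 FPKM in CTRL and 0.0516 in IR12. The CTRL step was 1.71 times the IR12 step at 17 of the 24 lengths compared and, within 0.002, a whole multiple or fraction of that at the other 7, so a read weighed less in IR12. The CTRL value of RT1-A2 equals 141 such steps and that of RT1-Da 8.93. The CTRL values of Tap1 and Nlrc5 equal 1.88 and 1.20 steps, so their ratios may rest on few reads in CTRL, but longer transcripts take more reads per FPKM and the table gives no transcript lengths. A value of exactly 0 can also be a failed estimate, since Hprt1, a gene that all cells use, is listed at 0 in both libraries.

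RT1-A2 and RT1-CE5 have the highest log2 ratios among the class I heavy chains. RT1-A genes encode the classical class I molecules of the rat, and RT1-CE genes form a further, larger class I cluster. The 250 bases before the start of each gene are shown because the windows of these copies resemble each other and hold the same motifs in the same order. They come from the RefSeq promoter table, build GRCr8 (RT1-A2 at chr20:4872621-4872870, plus strand; RT1-CE5 at chr20:3484091-3484340, minus strand), and capitals mark GAANNGAAA, a short form of the interferon-stimulated response element that was added after the windows had been seen, and the Y box CCAAT, each on either strand. Neither window holds the form GAAANNGAA.
RT1-A2: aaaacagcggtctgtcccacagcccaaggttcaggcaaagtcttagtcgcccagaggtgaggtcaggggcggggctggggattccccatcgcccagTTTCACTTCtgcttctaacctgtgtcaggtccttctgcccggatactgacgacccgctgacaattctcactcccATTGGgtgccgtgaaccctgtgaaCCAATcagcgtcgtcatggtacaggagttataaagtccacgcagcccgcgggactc
RT1-CE5: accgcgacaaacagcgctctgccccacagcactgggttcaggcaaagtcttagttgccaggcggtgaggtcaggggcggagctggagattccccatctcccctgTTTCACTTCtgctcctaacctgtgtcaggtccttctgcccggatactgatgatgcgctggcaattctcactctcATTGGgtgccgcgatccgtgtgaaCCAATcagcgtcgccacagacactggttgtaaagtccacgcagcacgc
The longest run of bases common to both windows is 35. With RT1-A2, runs of 30 bases or more are shared by 6 of the other 20 class I windows, RT1-A1 and 5 of RT1-CE, the longest being 54 bases with RT1-CE16. The other 14 class I windows share at most 11 bases with it, little more than the class II windows with at most 9. RT1-A1 and RT1-CE10 hold the same motifs in the same order, with log2 ratios of 1.14 and 0.36. The window of RT1-CE1, a gene with a log2 ratio of 1.81, shares 8 bases and holds none of these motifs.

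The 2 genes differed most between the libraries among class I. RT1-A2 had 12.5 FPKM in CTRL and 118 FPKM in IR12. Its log2 ratio of 3.14 ranked 90th among the 13599 expressed genes. RT1-CE5 had 5.63 FPKM in CTRL and 49.8 in IR12 (log2 ratio 2.94). Added up, both genes held 35.8% of the summed class I heavy chain FPKM in CTRL and 71.7% in IR12, as the table assigns the reads. RT1-A1, the neighbour of RT1-A2 at the same listed locus (chr20:5351605-5421098, build rn6), had 4.26 FPKM in CTRL and 10.6 in IR12 (log2 ratio 1.14). RT1-A2 stood at 2.92 times the FPKM of RT1-A1 in CTRL and at 11.2 times in IR12.

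Other copies of the RT1-CE cluster were less abundant. RT1-CE7 had 1.83 FPKM in CTRL and 6.64 in IR12 (log2 ratio 1.43). RT1-CE1 had 0.535 FPKM in CTRL and 4.37 in IR12 (log2 ratio 1.81). Both therefore lay past 2-fold beside RT1-CE5, with which they share a listed locus of 30 genes (chr20:4638663-5008262, build rn6). RT1-CE16 (1.61 FPKM in CTRL and 2.96 in IR12) and RT1-CE10 (1.54 FPKM and 2.26 FPKM) had log2 ratios of 0.60 and 0.36 and were under 2-fold, RT1-CE16 passing it under the common sum. RT1-CE10 is the only RT1 row outside the 4.08 Mb that hold the other 42 on chromosome 20. Near-identical copies share reads, and rn6 is built from the Brown Norway strain while these rats were Long-Evans, so the split of reads between copies is uncertain and the sum over copies is the safer level.

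The nonclassical class I genes have products with little polymorphism and in part special ligands. RT1-S3 had 2.83 FPKM in CTRL and 10.2 in IR12 (log2 ratio 1.54). RT1-N3 had 0.686 FPKM in CTRL and 3.59 in IR12 (log2 ratio 1.45). These were the nonclassical genes past 2-fold, joined by RT1-T24-4 under the common sum. RT1-T24-4 (2.03 FPKM in CTRL and 3.68 in IR12) and RT1-T24-3 (1.47 FPKM and 2.59 FPKM) had log2 ratios of 0.62 and 0.54. RT1-M3-1, the rat counterpart of the mouse M3 molecule that presents N-formylated peptides, had 7.05 FPKM in CTRL and 8.44 in IR12 (log2 ratio 0.23). RT1-N2 had 6.72 FPKM in CTRL and 8.30 in IR12 (log2 ratio 0.27). In CTRL these 2 genes came next after RT1-A2 among the class I rows, whereas in IR12 RT1-CE5, RT1-A1 and RT1-S3 lay above both.

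The remaining 19 class I rows stayed under 1 FPKM in both libraries. Of these, 9 are listed at 0 in both, among them RT1-M2, RT1-S2 and RT1-T18. The highest values were 0.944 FPKM in CTRL for RT1-CE4, which had 0.584 in IR12, and 0.639 FPKM in IR12 for RT1-CE9-ps1, which is listed at 0 in CTRL. All 7 rows with a pseudogene symbol were in this set. Summed over the 32 rows, class I heavy chains had 50.5 FPKM in CTRL and 234 FPKM in IR12 (log2 ratio 2.19). The median log2 ratio of the 23 rows above 0 was 0.38, beside 0.02 for all 19100 genes above 0, and that of the 13 expressed rows was 1.14.

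B2m encodes the light chain that every class I heavy chain needs to reach the cell surface. Its promoter window (RefSeq, GRCr8, chr3:129549080-129549329, plus strand) is shown because B2m is the most abundant member, with a match to the interferon-stimulated response element core GAAANNGAA and a Y box on the other strand in capitals.
B2m: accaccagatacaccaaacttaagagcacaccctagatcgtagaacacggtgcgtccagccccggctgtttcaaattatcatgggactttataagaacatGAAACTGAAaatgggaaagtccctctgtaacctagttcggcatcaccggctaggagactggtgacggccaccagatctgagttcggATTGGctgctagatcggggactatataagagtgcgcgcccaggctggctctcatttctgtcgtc
B2m had 65.7 FPKM in CTRL and 188 FPKM in IR12 (log2 ratio 1.50). Relative to the summed heavy chains, B2m stood at 1.30 times their FPKM in CTRL and at 0.805 times in IR12. The heavy chain sum was thus below the light chain in CTRL and above it in IR12.

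Tap1 and Psmb9 lie head to head, with 456 bases between their listed starts. Tap1 encodes a subunit of the peptide transporter and Psmb9 an interferon-inducible catalytic subunit of the immunoproteasome. Both windows are shown because the genes share this stretch (RefSeq, GRCr8, Tap1 at chr20:4668544-4668793, minus strand; Psmb9 at chr20:4668750-4668999, plus strand). Psmb10, another immunoproteasome subunit on chromosome 19 (chr19:50743293-50743542, minus strand), is added as the member with most matches. Capitals mark GAAANNGAA on either strand.
Tap1: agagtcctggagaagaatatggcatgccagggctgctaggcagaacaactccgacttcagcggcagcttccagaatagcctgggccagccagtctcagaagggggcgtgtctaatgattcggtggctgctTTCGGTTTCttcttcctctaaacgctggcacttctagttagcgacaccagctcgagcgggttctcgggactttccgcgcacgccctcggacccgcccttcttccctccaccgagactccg
Psmb9: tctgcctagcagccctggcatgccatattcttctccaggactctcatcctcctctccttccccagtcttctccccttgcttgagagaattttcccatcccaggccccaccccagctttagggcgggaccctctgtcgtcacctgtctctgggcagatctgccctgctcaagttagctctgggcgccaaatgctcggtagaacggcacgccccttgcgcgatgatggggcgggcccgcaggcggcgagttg
Psmb10: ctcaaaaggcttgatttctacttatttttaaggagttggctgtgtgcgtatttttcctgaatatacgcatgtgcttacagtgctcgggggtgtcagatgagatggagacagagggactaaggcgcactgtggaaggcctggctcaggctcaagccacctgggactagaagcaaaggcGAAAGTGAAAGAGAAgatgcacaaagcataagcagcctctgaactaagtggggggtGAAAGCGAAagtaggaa
The window of Tap1 holds 1 match, that of Psmb9 none and that of Psmb10 3, of which 2 overlap. The Tap1 match, 120 to 112 bases before its start, lies between the starts of both genes but outside the window searched for Psmb9.

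Tap1 had 0.166 FPKM in CTRL and 3.34 FPKM in IR12 (log2 ratio 1.90). Psmb9 had 0.848 FPKM in CTRL and 5.21 in IR12 (log2 ratio 1.75). Psmb10 had 2.94 FPKM in CTRL and 8.14 in IR12 (log2 ratio 1.21). These 3 and B2m were the loading and processing genes past 2-fold as deposited. Psmb8 passed it with a pseudocount of 0.1 in place of 1 (1.65), and Tapbp under the common sum (1.29). Psmb8, the immunoproteasome subunit next to Tap1, had 0.299 FPKM in CTRL and 1.15 in IR12 (log2 ratio 0.73). Tapbp encodes tapasin, which holds empty class I molecules at the transporter. Its FPKM was 11.7 in CTRL and 19.6 in IR12 (log2 ratio 0.70). Tap2, whose product pairs with that of Tap1, is listed at 0 in both libraries. The median log2 ratio of the 6 genes above 0 was 1.36.

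In the immunoproteasome, Psmb8, Psmb9 and Psmb10 take the places of the constitutive subunits Psmb5, Psmb6 and Psmb7. The constitutive genes were far more abundant, with 41.1, 60.9 and 110 FPKM in CTRL and 60.2, 106 and 149 FPKM in IR12. Psmb8 stood at 0.726% of the FPKM of Psmb5 in CTRL and at 1.92% in IR12. Psmb9 stood at 1.39% of Psmb6 in CTRL and at 4.92% in IR12. Psmb10 stood at 2.67% of Psmb7 in CTRL and at 5.45% in IR12. The relative level of the immunoproteasome genes was therefore higher in IR12 by 2.64, 3.54 and 2.04 times, in ratios from which any scale of the libraries cancels, while the constitutive genes still made up most of the FPKM.

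**Figure D2:**
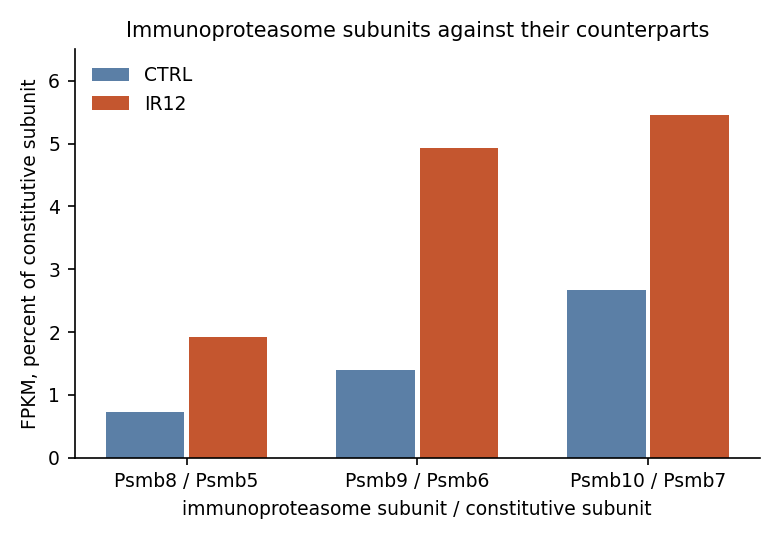
FPKM of each immunoproteasome subunit as a percentage of the FPKM of the constitutive subunit it replaces, with 1 bar for CTRL and 1 for IR12. All 3 percentages are higher in IR12, and the highest is 5.45%, for Psmb10.

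Class II chains were much less abundant than class I. RT1-Da and RT1-Db1 encode the alpha and beta chain of the rat counterpart of HLA-DR, and RT1-Ba and RT1-Bb those of the counterpart of HLA-DQ. Windows of RT1-Da and RT1-Db1 are shown because their products pair and RT1-Da is the main class II gene here (RefSeq, GRCr8, RT1-Da at chr20:4515165-4515414, plus strand; RT1-Db1 at chr20:4560163-4560412, minus strand), with the Y box, a part of the conserved class II promoter, in capitals on either strand.
RT1-Da: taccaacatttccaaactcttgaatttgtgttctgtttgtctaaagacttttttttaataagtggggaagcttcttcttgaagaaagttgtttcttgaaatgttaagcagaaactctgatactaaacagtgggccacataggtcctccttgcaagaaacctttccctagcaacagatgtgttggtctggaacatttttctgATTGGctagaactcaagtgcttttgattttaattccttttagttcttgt
RT1-Db1: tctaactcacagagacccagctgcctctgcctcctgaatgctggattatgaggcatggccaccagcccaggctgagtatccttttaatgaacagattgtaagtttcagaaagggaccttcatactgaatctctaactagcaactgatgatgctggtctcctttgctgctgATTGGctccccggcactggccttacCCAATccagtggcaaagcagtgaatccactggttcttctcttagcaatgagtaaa
RT1-Da had 0.787 FPKM in CTRL and 8.36 FPKM in IR12 (log2 ratio 2.39), the highest of the class II rows. RT1-Ba had 0.624 FPKM in CTRL and 2.11 in IR12 (log2 ratio 0.94). RT1-Db1 had 0.363 FPKM in CTRL and 1.27 in IR12 (log2 ratio 0.73). Only RT1-Da was past 2-fold on the (FPKM + 1) scale. With a pseudocount of 0.1 RT1-Ba (1.61) and RT1-Db1 (1.56) were as well, as were RT1-Bb and RT1-DOa, both listed at 0 in CTRL. RT1-Ba also passed 2-fold under the common sum (1.22). In CTRL no class II row reached 1 FPKM.

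The other 8 class II rows stayed under 1 FPKM in both libraries. RT1-Bb and RT1-DOa are listed at 0 in CTRL and had 0.417 and 0.126 FPKM in IR12. RT1-DOb, with 0.290 FPKM in CTRL and 0.174 in IR12, and RT1-Db2, with 0.196 and 0.0574, were lower in IR12. RT1-DMb, RT1-Ha and both rows of RT1-DMa are listed at 0 in both. RT1-DMa and RT1-DMb encode the chains of the molecule that exchanges the invariant chain fragment for peptide, so class II loading cannot be followed at this step from the table. Summed over the 11 rows, class II had 2.26 FPKM in CTRL and 12.5 FPKM in IR12 (log2 ratio 2.05), of which RT1-Da made up 34.8% in CTRL and 66.8% in IR12. The median log2 ratio of the 7 rows above 0 was 0.50.

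Cd74 encodes the invariant chain, which blocks the groove of new class II molecules and steers them to endosomes. Cd74 had 1.87 FPKM in CTRL and 13.0 FPKM in IR12 (log2 ratio 2.28). This was close to the summed class II chains in both libraries, at 0.828 times their FPKM in CTRL and 1.04 times in IR12.

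Class I and class II differed in level, and little in their ratio between the libraries. The summed class I heavy chains stood at 22.3 times the summed class II chains in CTRL and at 18.7 times in IR12. The log2 ratio of the class I sum exceeded that of the class II sum by 0.14. With a pseudocount of 0.1 in place of 1 the difference was -0.21, so its sign depends on how the low class II values are treated. Without the most abundant chain of each class, RT1-A2 and RT1-Da, the log2 ratios of the sums were 1.58 for class I and 1.06 for class II. As the table assigns the reads, a single chain carried a large share of the difference between the libraries in each class.

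**Figure D3:**
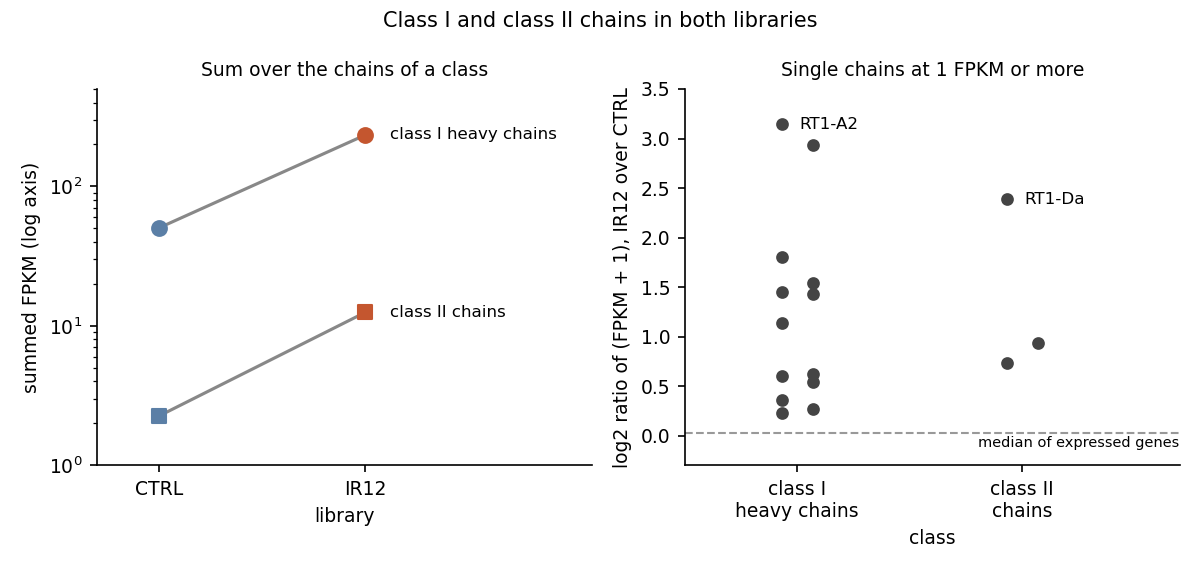
Left, summed FPKM (log axis) of class I heavy chains and of class II chains in CTRL and IR12; right, log2 ratio of (FPKM + 1) for each expressed chain, with the median of the expressed genes as a dashed line. Both sums are higher in IR12, 234 against 50.5 FPKM for class I and 12.5 against 2.26 FPKM for class II. The class II chains shown reached 1 FPKM in IR12 alone, so their place above 0 follows from the filter, and chains under 1 FPKM are not shown.

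The 2 master regulators of MHC transcription differed. Nlrc5, the transactivator of class I genes, had 0.105 FPKM in CTRL and 1.96 FPKM in IR12 (log2 ratio 1.42). Ciita, the transactivator of class II genes, had 1.69 FPKM in CTRL and 1.59 in IR12 (log2 ratio -0.05), which became 0.33 when both libraries had the same sum. RT1-Da, the class II sum and Cd74 were therefore higher in IR12 beside a Ciita level that was nearly the same in the 2 libraries on the deposited scale.

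Promoter windows of 250 bases were found by symbol for 38 of the 51 member symbols in the RefSeq table, which holds 27456 windows. GAAANNGAA was present, on either strand, in 8 of the 38, those of B2m, Tap1, Tap2, Tapbp, Psmb10, RT1-S2, RT1-S3 and RT1-N3, and in 7.99% of all windows. It was in 5 of the 7 windows of loading and processing genes, B2m included, in 3 of the 21 class I heavy chain windows and in none of the 9 class II windows. GAANNGAAA, the short form added after the windows had been seen, was in 12 of the 38 windows and in 7.05% of all. It was in 9 of the 21 class I heavy chain windows, in those of Cd74, Tap2 and Tapbp, and in none of class II. The 9 include RT1-A2 and the 6 windows that share runs of 30 bases or more with it. Because the form was chosen from these windows, its share beside 7.05% carries no weight. CCAAT was in all 9 class II windows, in 14 of the 21 class I heavy chain windows and in 34.3% of all. The gamma-activated site TTCNNNGAA was in 2 of the 38 windows, of Psmb8 and RT1-M3-1, and in 7.52% of all. The X2 box core TGACGC was in 2 of the 38, of RT1-CE16 and RT1-M3-1, and in 6.16% of all. A match describes letters in a window and not a site that is used, and some windows of class I copies resemble each other and are not separate observations.

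Other genes of the pathway were followed through 6 lists with 68 genes in the table, of which 58 were expressed. Among these, 18 lay 2-fold or more above CTRL and 2 lay 2-fold or more below, beside 6.56% and 6.12% of all expressed genes, with a median log2 ratio of 0.53 beside 0.02. Under the common sum 36 of the 58 were higher and none lower, beside 20.7% and 3.21% of all expressed genes, and the median was 1.10 beside 0.59. Among the 51 at 1 FPKM or more in CTRL, a choice made after the values were seen, 13 were at least 2-fold higher and 2 lower. Of all 12958 genes at that level in CTRL, 535 were at least 2-fold higher and 832 lower. The median log2 ratio of the 51 was 0.46, beside -0.01 for all genes at that level.

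Peptide supply and editing for class I comprised 16 expressed genes, all above their CTRL value under each of the 4 scales tried. Of the 13599 expressed genes, 7048 lay above their CTRL value as deposited and 11464 under the common sum. The median log2 ratio was 0.54, and 4 genes were at least 2-fold higher, beside 6.56% of all expressed genes. Under the common sum the median was 1.17 and 13 genes were at least 2-fold higher, beside 20.7% of all expressed genes. Ube2l6, the conjugating enzyme for the ubiquitin-like protein ISG15, had 1.94 FPKM in CTRL and 6.87 in IR12. Psme1 had 35.6 FPKM in CTRL and 77.3 in IR12, and Psme2 had 14.2 and 34.8. These 2 genes encode the PA28 activator, which opens the proteasome to peptide release. The chaperone gene Hspa5 had 204 FPKM in CTRL and 483 in IR12. Calr, which encodes the chaperone calreticulin and was the most abundant gene of the list, had 293 FPKM in CTRL and 508 in IR12, under 2-fold.

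In the class II loading compartment, 3 of 10 expressed genes were at least 2-fold higher and 2 at least 2-fold lower. Of all expressed genes, 6.56% were higher and 6.12% lower by that measure. Ctsl, the most abundant, had 187 FPKM in CTRL and 399 in IR12, and Ctsd had 90.6 and 191. Both encode lysosomal proteases. Ifi30, a thiol reductase of the compartment, had 4.83 FPKM in CTRL and 10.9 in IR12. Ctsh, another cathepsin gene, had 22.7 FPKM in CTRL and 10.7 in IR12. Cd83, which encodes a protein that stabilises class II at the surface, had 17.8 FPKM in CTRL and 8.15 in IR12. The list thus held genes in both directions, with a median log2 ratio of 0.16, and its calls depend on the scale. The 3 higher genes were no longer past 2-fold when the libraries were scaled to their sums without small RNAs. Under the common sum 4 genes were at least 2-fold higher and none lower, beside 20.7% and 3.21% of all expressed genes. The median was then 0.79, and Ctsh and Cd83 had log2 ratios of -0.41 and -0.44.

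The list of MHC transcription held the highest ratios among the pathway genes. Of 20 expressed genes, 8 were at least 2-fold higher and none at least 2-fold lower, beside 6.56% and 6.12% of all expressed genes. The median log2 ratio was 0.90. Under the common sum 13 were at least 2-fold higher, beside 20.7% of all expressed genes, with a median of 1.51. Irf7, Irf8, Relb, Nfkb2 and Socs3 count as expressed through IR12 alone, which fixes their direction. Of the 15 genes at 1 FPKM or more in CTRL, 4 were at least 2-fold higher, with a median of 0.52. Of all 12958 genes at that level in CTRL, 535 were at least 2-fold higher. Stat3, which transmits signals of the interleukin-6 family and had the highest FPKM of the list in IR12, had 17.7 FPKM in CTRL and 120 FPKM in IR12. Irf1 had 8.06 FPKM in CTRL and 31.4 in IR12. Irf1 is an interferon regulatory factor that binds the response elements described above. Irf9, of the same family, had 10.6 and 54.3 FPKM, and Irf7 had 0.513 and 6.37 FPKM. Relb had 0.443 FPKM in CTRL and 3.01 in IR12, and Nfkb2 had 0.566 and 3.29. Relb and Nfkb2 encode the subunits of the noncanonical NF-kB dimer. Socs3, a feedback inhibitor of cytokine signals, had 0.393 FPKM in CTRL and 29.1 in IR12 (log2 ratio 4.43). Genes of the factors that bind the X and Y boxes were under 2-fold as deposited, values named after they were seen. Rfx5 had 18.4 FPKM in CTRL and 13.2 in IR12, Rfxank had 4.04 and 4.37, and Rfxap is listed at 0 in both libraries. Nfya had 11.0 and 11.6 FPKM, Nfyb 58.1 in both, Nfyc 31.1 and 35.7, and Creb1 28.0 and 39.2. Under the common sum the log2 ratio of Rfx5 turned from -0.45 to 0.16, and Creb1 alone of these genes passed 2-fold (1.10).

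The 2 interferon genes looked at, Ifng and Ifnb1, are listed at 0 in both libraries. Of the 7 expressed receptor and kinase genes of this list, 1 was at least 2-fold higher, beside 6.56% of all expressed genes. Ifngr2, a chain of the interferon-gamma receptor, had 5.63 FPKM in CTRL and 12.8 in IR12. Jak1, the most abundant, had 73.6 and 102 FPKM. Ifngr2 was no longer past 2-fold when the libraries were scaled to their sums without small RNAs. Under the common sum 4 of the 7 were at least 2-fold higher, beside 20.7% of all expressed genes. The list median of 0.42 became 1.04.

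Class I-like genes outside the RT1 complex stayed under 2-fold. None of the 3 expressed genes was past it under any of the 4 scales, and the most abundant, the neonatal Fc receptor gene Fcgrt, had 5.35 FPKM in CTRL and 3.86 in IR12. The list median was -0.38 as deposited and 0.14 under the common sum. Among costimulation genes, both expressed ones were at least 2-fold higher, Icam1 counting as expressed through IR12 alone. Icam1, an adhesion molecule for T cells and leukocytes, had 0.718 FPKM in CTRL and 7.32 in IR12. Cd274, which encodes the inhibitory ligand PD-L1, had 1.57 FPKM in CTRL and 5.53 in IR12. Cd80, Cd86 and Cd40 stayed under 1 FPKM in both libraries.

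**Figure D4:**
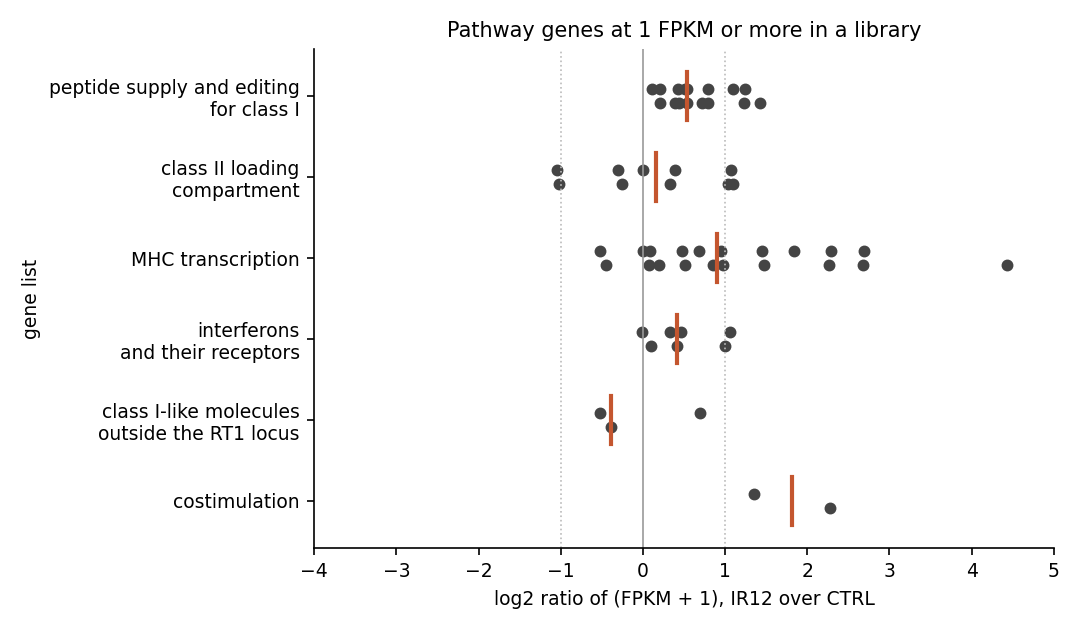
Log2 ratio of (FPKM + 1), IR12 over CTRL, of the 58 expressed pathway genes, by list, with 1 point per gene and the list median as an upright bar; dotted lines mark 2-fold. The MHC transcription list reaches furthest, up to 4.43 for Socs3, and the class II loading compartment has genes on both sides.

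Retina consists of many cell types, and injured retina can take up cells from blood, so marker lists were read beside these results. In bulk tissue, fewer cells of a type and less RNA per cell cannot be told apart. The rod genes, which mark retina, summed to 15944.5 FPKM in CTRL and 18459.8 in IR12. All 7 rod genes were expressed in both libraries, and none was past 2-fold on the deposited scale, while 1 was at least 2-fold higher under the common sum and 1 at least 2-fold lower when scaled without small RNAs.

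Markers of neutrophils and monocytes were higher beside the MHC genes. Of 11 genes, 8 were expressed and 7 at least 2-fold higher, and their sum was 12.2 FPKM in CTRL and 131 FPKM in IR12. All expressed genes of the list but Lyz2 count as expressed through IR12 alone, which fixes their direction. Lyz2, the most abundant, had 9.73 FPKM in CTRL and 76.9 in IR12. S100a9 had 0.199 and 23.0 FPKM, and S100a8 is listed at 0 in CTRL and had 12.8 FPKM in IR12. Their products form calprotectin, a protein stored in neutrophils. The pan-leukocyte gene Ptprc had 0.408 FPKM in CTRL and 2.98 in IR12, and the integrin gene Itgam had 0.693 and 5.71. Cd14 had 0.130 FPKM in CTRL and 2.85 in IR12, and Fcgr3a had 0.604 and 2.59. Ccr2 and Mmp8 are listed at 0 in CTRL and had 0.854 and 0.255 FPKM in IR12. These cells carry MHC class I, and monocytes class II as well, and their part in the higher MHC levels was not tested.

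The markers listed for microglia, the resident macrophages of the retina, showed no such difference. Of 10 genes, 8 were expressed and none was past 2-fold under any of the 4 scales, and their sum was 59.9 FPKM in CTRL and 52.9 FPKM in IR12. Of 7 dendritic cell genes, 3 were expressed, with sums of 4.19 and 5.54 FPKM. Zbtb46, the most abundant, had 2.42 FPKM in CTRL and 2.26 in IR12, and the receptor gene Flt3 had 1.55 and 0.705, while Itgax, which monocytes also use, had 0.174 and 1.62. Batf3, Xcr1 and Clec9a are listed at 0 in CTRL, and had 0.769, 0.00944 and 0.0876 FPKM in IR12. The part of dendritic cells and microglia in the class II levels was not tested.

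Most lymphocyte markers were under 1 FPKM. Of 7 T cell genes only Cd4, which macrophages of the rat also carry, was expressed, with 1.09 FPKM in CTRL and 1.08 in IR12, and the list summed to 1.60 and 2.21 FPKM. Cd3e and Cd3d are listed at 0 in CTRL and had 0.0922 and 0.0733 FPKM in IR12. Of 6 B cell genes only Blnk was expressed, with 1.56 and 1.07 FPKM, and the list summed to 1.99 FPKM in CTRL and 1.33 in IR12. Cd79a and Pax5 are listed at 0 in both libraries.

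Other cell types differed as well. Among 6 Müller glia genes, 5 were at least 2-fold lower in IR12, or 4 under the common sum, and the list summed to 1555 FPKM in CTRL and 547 FPKM in IR12. Glul, the most abundant in CTRL, had 754 and 126 FPKM, Dkk3 had 399 and 125, and Rlbp1 had 126 and 26.8. Slc1a3 had 108 FPKM in CTRL and 44.3 in IR12, and Aqp4 had 48.0 and 4.16. Vim, the intermediate filament gene of these cells and the most abundant of the list in IR12, had 121 and 221 FPKM, past 2-fold only under the common sum. Müller cells span the retina and can carry MHC molecules under interferon, and their part in the result was not tested.

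Endothelial markers (5 of 6 expressed) summed to 117 FPKM in CTRL and 76.7 in IR12, led by Kdr with 108 and 66.8 FPKM, and none was past 2-fold. Cldn5 (2.92 and 1.65 FPKM) and Tek (3.46 and 3.40 FPKM) also lay below their CTRL value, and Vwf (1.91 and 2.44 FPKM) and Cdh5 (0.883 and 1.63 FPKM) above it. Of 4 blood genes listed, 2 were expressed. Hbb had 20.4 FPKM in CTRL and 35.1 in IR12, and Hba-a2 had 6.77 and 17.1, with 28.4 and 52.6 FPKM for the list, while Hba-a1 (0.859 and 0.168 FPKM) and Alas2 (0.334 and 0.196 FPKM) lay below their CTRL value. Lens genes, which can enter a retina sample with attached lens tissue, were all 6 at least 2-fold lower in IR12, with sums of 1353 FPKM in CTRL and 158 FPKM in IR12. Cryaa, the most abundant, had 1118 and 124 FPKM, and Crygs had 194 and 28.3. Mip had 16.1 FPKM in CTRL and 1.67 in IR12, Lim2 had 10.7 and 1.52, Bfsp2 had 7.42 and 0.931, and Bfsp1 had 6.29 and 1.50. The lens and blood lists thus differed between the 2 retinas, and the part of lens tissue or blood in the MHC levels was not tested. Of 5 expressed housekeeping genes only Actb was past 2-fold, with 260 FPKM in CTRL and 537 in IR12 and under 2-fold once scaled without small RNAs, while 2 genes were past it under the common sum, and Ppia, the most abundant, had 832 and 903 FPKM.

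**Figure D5:**
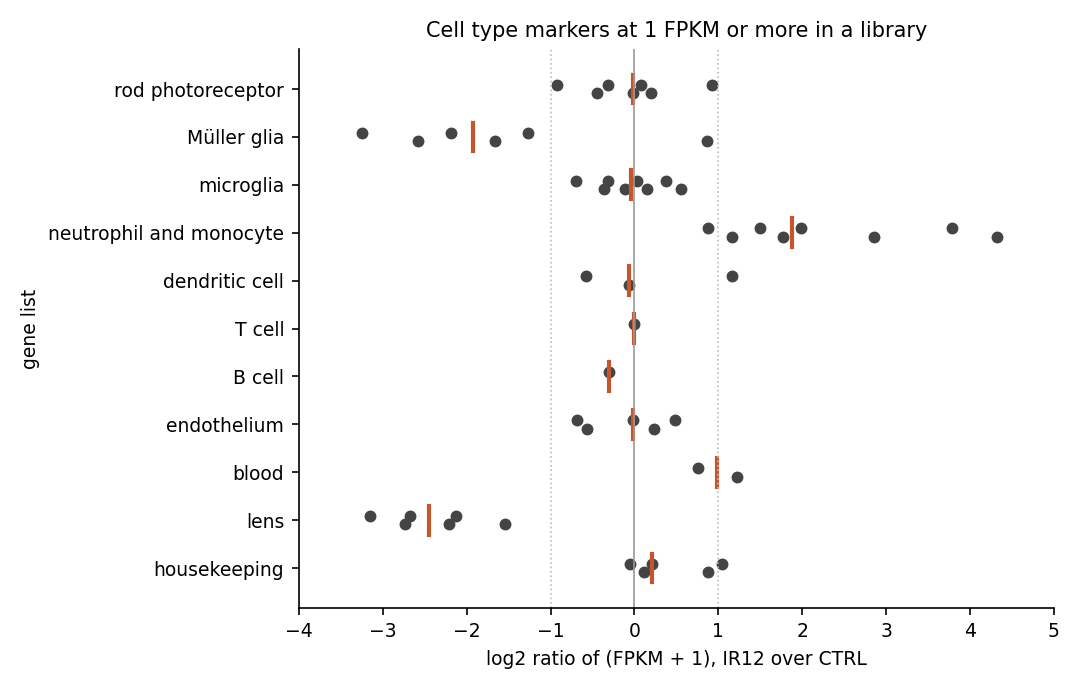
Log2 ratio of (FPKM + 1), IR12 over CTRL, of the expressed marker genes of 11 lists, with 1 point per gene and the list median as an upright bar; dotted lines mark 2-fold. Neutrophil and monocyte genes lie to the right, which for all but Lyz2 follows from the filter, Müller glia and lens genes mostly to the left, and rod and microglia genes around 0.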

How the data were processed

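Per the labels and the study's methods, RNA of 1 sham and 1 injured rat retina was depleted of ribosomal RNA and sequenced as single-end reads. The deposited table holds gene FPKM, made by the authors. Their processing notes name STAR 2.5.2b, Cuffdiff 2.2.0 and build rn6; the sources name an Ensembl annotation for a test run of the authors' software and none for this table. Coordinates were raised by 1 at the start.

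From these values log2 ratios of (FPKM + 1), sums, medians and counts were computed in Python 3.11.15 with pandas 2.3.3 and numpy 2.4.6. The steps were tested on simulated data. With 1 library per group no test was run. Motifs were searched on both strands of RefSeq GRCr8 windows; identity between class I proteins was not computed. All members with at least 1 FPKM in a library are named; of the other lists, at least the gene with the highest FPKM and those past 2-fold, apart from some left out. Alternatives were a pseudocount of 0.1, 3 other scales, minima of 1 and 5 FPKM, and sums without the leading chain. The members and lists were chosen with earlier results of these data known.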

Additional observations from a re-analysis of the deposited data

How the results depend on the processing

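The direction of the group results of the members held under every alternative tried, except for the difference between class I and class II. Median log2 ratios of the rod, microglia, dendritic cell, T cell, B cell, endothelium and class I-like lists turned from below to above 0 under the common sum. With a pseudocount of 0.1, 22 members, 17 of them expressed, were at least 2-fold higher in place of 14, beside 8.59% of the expressed genes, the class II median log2 ratio was 1.56 in place of 0.50, and the difference between class I and class II was -0.21 in place of 0.14; a smaller pseudocount by construction widens the ratios of genes near 0. With the common FPKM sum, the class I summed log2 ratio was 2.83 in place of 2.19, and all expressed genes gave 2817 higher and 436 lower in place of 892 and 832. A minimum of 1 FPKM raised the class I median to 1.14, and one of 5 FPKM gave 1.43 for class I and 2.39 for class II, where RT1-Da is the only row left. Counting only members at 1 FPKM or more in CTRL, chosen after seeing the data, gave 8. Without RT1-A2 and RT1-Da the summed log2 ratios were 1.58 for class I and 1.06 for class II. Of the 100 values of the 25 named members under the 4 alternatives to pseudocount and scale, 87 moved by less than 1.5 times in the same direction. Ciita alone changed sign, to 0.33 under the common sum. No paired analysis was possible because each group has 1 library. Depth may limit members with low CTRL values, Tap1 and Nlrc5 among them.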

Other observations

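The RT1 genes of chromosome 20 are interleaved with genes of other functions. Between the first and the last RT1 row of the 4.08 Mb block lie 245 genes of the table that are not members, 16 of them small RNA genes. The members Tap1, Tap2, Psmb8 and Psmb9 also lie there and are left out of these counts. Of these, Tap1 and Psmb9 were at least 2-fold higher, as given above. Of the 245, 87 were expressed, 6 of these at least 2-fold higher in IR12 and 5 at least 2-fold lower, shares close to the 6.56% and 6.12% of all expressed genes. Under the common sum 29 were at least 2-fold higher and 3 lower, beside 20.7% and 3.21% of all expressed genes. The median log2 ratio of the 87 was 0.17 beside 0.02 for all expressed genes, and 0.72 beside 0.59 under the common sum. Small RNA genes aside, the highest log2 ratios among the 87 were those of Clic1 and Ier3. Clic1, a chloride channel family gene, had 5.62 FPKM in CTRL and 47.7 in IR12. The early response gene Ier3 had 8.20 and 30.5 FPKM. AABR07044405.1, at the same listed locus as RT1-CE5, had 35.9 FPKM in CTRL and 116 in IR12, and Lst1 had 0.273 and 1.90. The small nucleolar RNA gene SNORD48 is listed at 0 in CTRL and had 104.8 FPKM in IR12, whereas of the 2 rows of SNORD83 1 had 263 FPKM in CTRL and is listed at 0 in IR12, and the other had 211 and 165 FPKM. The other lower genes were Rn60_20_0051.7 with 2.54 FPKM and Rn50_20_0055.15 with 2.16 FPKM in CTRL, both listed at 0 in IR12, Sapcd1 with 9.19 and 3.42 FPKM, and Col11a2 with 3.12 and 0.977 FPKM. On the deposited scale most of the 87 expressed genes were therefore under 2-fold.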
